A study of Mus musculus with 9 samples.

Results

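Neutrophil granule and maturation genes were followed in sorted brain myeloid cells from a mouse model of Alzheimer's disease. The list held 33 genes, and a gene was measured where a probe set of the array was annotated to it alone. That was so for 32 of the 33, each with exactly 1 such probe set. The exception was Stfa2l1, a cystatin family member, whose only probe set is shared with Stfa2. Of the 32, 23 had a mean over all arrays at or above the level filter, a log2 value of 5.31, and were tested among 10795 of the 19938 genes measured. The other 9 lay below the filter: the azurophil granule genes Mpo, Elane, Prtn3 and Ctsg, together with Fcnb, Serpinb1a, Padi4, Ly6g and Gfi1.

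The study compared 3 genotypes with 9 microarrays, 1 per mouse. All mice were 8.5 months old, carried the 5XFAD transgenes, which encode human amyloid precursor protein and presenilin with familial Alzheimer's disease mutations, and lacked mouse TREM2. The group called KO had no human TREM2 in addition, the group R47H expressed the R47H variant of human TREM2, which is linked to Alzheimer's disease risk, and the group CV expressed its common variant. Each group held 3 mice, mouse 1 female and mice 2 and 3 male. Brains were perfused with buffered saline and dissociated, and CD45+ CD11b+ cells, which the labels call microglia, were sorted. The sources used here do not name the promoter of the human TREM2 transgenes, and no group with mouse TREM2 or without 5XFAD was analysed here. CD11b and CD45 are also carried by neutrophils and monocytes, so the 2 named markers of the gate do not separate these cells from microglia.

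Neutrophils form their granules in sequence while they mature in the bone marrow. Azurophil granules are filled first, at the promyelocyte stage, with myeloperoxidase and serine proteases. Specific granules follow with lactoferrin, lipocalin 2 and cathelicidin, then gelatinase granules with matrix metalloproteinases, and last secretory vesicles with surface receptors. Mature neutrophils keep large amounts of S100a8 and S100a9 transcripts. C/EBP epsilon, encoded by Cebpe, drives the specific granule programme, and Gfi1 acts earlier in commitment to the lineage.

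C/EBP factors bind sites close to TTGCNNAA, and for that reason the members' promoters were searched for these letters in the 250 bases before the annotated start, on both strands (on the opposite strand the match reads TTNNGCAA). RefSeq promoters on the GRCm38.p6 build were found for 28 of the 33 genes. Of these, 10 held at least 1 match: Anxa1, Fcnb, Gfi1, Lcn2, Ltf, Ly6g, Mmp8, Ngp, Retnlg and S100a9. Among all 32851 promoters 9.56% held one, and 10.8% of the 27025 genes they belong to. The letters GAGGAA, the core bound by the ETS factor encoded by Spi1, were present in 17 of the 28. They were in 23.3% of all promoters and 25.9% of the genes they belong to. The windows below come from the genes whose values varied most, are written 5′ to 3′ on the gene's strand, and carry the C/EBP match in capitals. They show where the letters occur, not that a factor binds there. The windows lie at chr9:110419645-110419702 (plus strand) and chr9:110419772-110419807 (plus) for Ngp, chr9:111019192-111019249 (plus) for Ltf, chr2:32387923-32387980 (minus) for Lcn2, chr9:7558385-7558428 (plus) for Mmp8, chr16:48872358-48872394 (plus) for Retnlg, chr3:90695925-90695971 (minus) for S100a9, chr15:75155011-75155061 (plus) for Ly6g and chr19:20390782-20390839 (minus) for Anxa1.
Ngp, distal match: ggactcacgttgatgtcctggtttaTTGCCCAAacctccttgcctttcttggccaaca
Ngp, proximal match: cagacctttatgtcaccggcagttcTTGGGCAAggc
Ltf: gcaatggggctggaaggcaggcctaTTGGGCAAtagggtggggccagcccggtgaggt
Lcn2: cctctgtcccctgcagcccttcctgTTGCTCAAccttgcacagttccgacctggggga
Mmp8: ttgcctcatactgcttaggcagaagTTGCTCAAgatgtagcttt
Retnlg: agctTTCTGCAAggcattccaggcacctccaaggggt
S100a9: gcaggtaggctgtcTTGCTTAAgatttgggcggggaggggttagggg
Ly6g: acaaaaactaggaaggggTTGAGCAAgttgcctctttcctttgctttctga
Anxa1: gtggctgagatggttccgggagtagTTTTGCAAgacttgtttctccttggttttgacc
Camp and S100a8, which varied as widely as these, had a promoter entry without a match in this window.

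One array stood apart from its group and bears on every comparison with KO. KO mouse 3 had higher values than both other KO mice for 21 of the 23 genes tested, against 28.9% of all genes tested, and higher values than all 3 R47H mice for 20, against 23.5%. For 18 of the 23 the 4 highest of the 9 arrays were KO mouse 3 and the 3 CV mice, a pattern shown by 1.55% of all genes tested. Without the level filter this count was 19 of the 32 measured, with Ly6g added, against 1.08% of 19938 genes. Results are therefore given with all arrays and without KO mouse 3. That mouse was singled out after its values were seen, as one of the removals of each array in turn.

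The sorted cells carried microglial transcripts, with all 9 microglial markers measured above the level filter. Their mean, over genes that include Cx3cr1, P2ry12, Tmem119 and Csf1r, ran from 11.43 to 11.58 in KO, from 11.39 to 11.48 in R47H and from 11.27 to 11.35 in CV. Every CV array thus lay below every KO and R47H array on this mean. For 6 of the 9 genes every CV value was below every KO value, against 869 of 10795 genes tested. KO mouse 3 had the highest of these means, at 11.58. In RNA from a mixed sort, fewer cells of a type and less RNA per cell cannot be told apart.

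**Figure D1:**
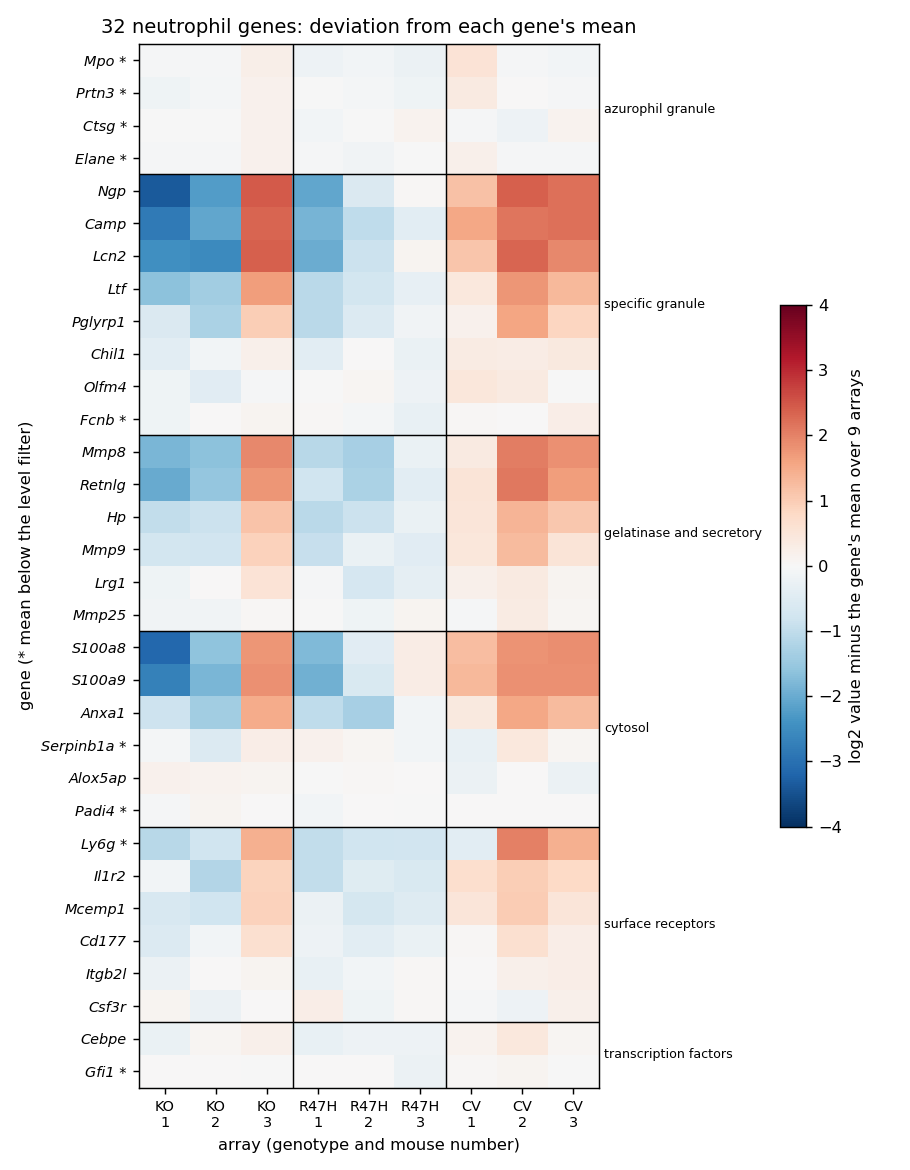
Deviation of each of the 32 measured neutrophil genes (rows, grouped by role, with * for a mean below the level filter) from its own mean over the 9 arrays (columns, by genotype and mouse number), on the log2 scale. KO mouse 3 and the 3 CV mice are red for most specific granule, gelatinase and S100 genes, with 18 of the 23 tested genes having exactly these as their 4 highest arrays, while the azurophil granule genes stay pale.

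The genes spread widely between mice. The median SD over the 9 arrays was 0.85 for the 23 genes tested and 0.13 for all 10795, and 14 of the 23 were among the 100 genes of largest SD. Ngp ranked 4, Camp 5, Lcn2 6, S100a8 9 and S100a9 10 of 10795 by this SD. Within groups the median SD of the 23 was 1.03 in KO, 0.34 in R47H and 0.31 in CV, where all genes had 0.12, 0.10 and 0.10. The range within KO was over 1, which is a 2-fold difference, for 15 of the 23, against 1.11% of all genes tested. Within R47H it was over 1 for 7, against 0.815%, and within CV for 7, against 0.343%. The median deviation of the 23 from their own means was -0.62 and -0.88 in KO mice 1 and 2, 0.92 in KO mouse 3, -0.92, -0.53 and -0.20 in the R47H mice, and 0.44, 1.27 and 0.81 in the CV mice.

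R47H against CV asks how cells with the variant differ from cells with the common form. Most neutrophil genes had lower values in R47H than in CV, and the values of the groups did not touch for 18 of the 23 tested, against 6.17% of all genes tested. The 18 came from several of the lists used here. Camp, Ngp, Ltf, Lcn2, Pglyrp1 and Chil1 were listed for the specific granule. Mmp8, Mmp9, Hp, Retnlg and Lrg1 were listed as gelatinase and secretory genes. S100a8, S100a9 and Anxa1 were listed for the cytosol, Il1r2, Cd177 and Mcemp1 as receptors, and Cebpe as a transcription factor. The difference was negative for 21 of the 23, at a median of -1.45 where all genes had 0.01, and over all 32 measured genes it was negative for 29 at a median of -0.60. The largest differences were those of Camp at -3.06 ± 0.96 (SE), Ngp at -2.78 ± 1.01 and Lcn2 at -2.69 ± 1.01.

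None of the 23 passed the test in this comparison. A gene was called at an adjusted p under 0.05 in limma's linear model over all 9 arrays, with genotype and sex as terms and Benjamini-Hochberg adjustment over all 10795 genes, and 0.797% of all genes were called. The lowest adjusted p of the 23 was 0.104, for Chil1. At an unadjusted p under 0.05, 20 were lower, against 5.24% of all genes. The model takes its spread from all 3 groups, KO mouse 3 included. Without that mouse the differences themselves stayed the same, and limma called 13 of the 23 lower, against 0.723% of all genes: Camp, Ngp, Ltf, Lcn2, Chil1, Mmp8, Mmp9, Hp, Retnlg, S100a8, S100a9, Il1r2 and Mcemp1. Fitted with the R47H and CV arrays alone, 8 were called lower (Camp, Ngp, Ltf, Lcn2, Hp, S100a8, S100a9 and Il1r2), against 0.556%. Without KO mouse 2, which leaves KO mouse 3 in, 2 were called lower (Pglyrp1 and Il1r2), against 0.509%.

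CV against KO asks what the common variant of human TREM2 changes where mouse TREM2 is absent. For 22 of the 23 genes the mean was higher in CV, at a median difference of 0.96 where all genes had -0.02, and over all 32 measured genes 29 were positive at a median of 0.47. The groups overlapped for most of them because KO mouse 3 lay among the CV mice. Only Olfm4 and Chil1 had every CV mouse above every KO mouse, against 5.9% of all genes. Against KO mice 1 and 2 alone, all CV mice were higher for 20 of the 23, where 12.4% of all genes showed this.

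With all 9 arrays limma called 0 of the 23 in CV minus KO, and 1.21% of all genes. At an unadjusted p under 0.05, 15 were higher, against 6.23% of all genes, and Alox5ap was lower. The largest differences were 2.97 ± 1.01 for Ngp, 2.83 ± 0.96 for Camp, 2.65 ± 1.01 for Lcn2 and 2.63 ± 0.80 for S100a8, with adjusted p of 0.255, 0.254, 0.302 and 0.208 in limma. Without KO mouse 3, 11 were called higher, against 1.18% of all genes: Camp, Ngp, Ltf, Lcn2, Mmp8, Mmp9, Hp, Retnlg, S100a8, S100a9 and Mcemp1. All 11 were also among the 13 called in R47H minus CV without that mouse, a comparison that uses the same CV arrays. The level filter of 5.31 was set on the mean of all 9 arrays. The mean of KO mice 1 and 2 was under it for Ngp (4.84), Ltf (5.19), Lcn2 (5.17), Mmp8 (4.02), Hp (5.13) and Mcemp1 (5.26). These genes entered the test through their higher arrays, so their calls without KO mouse 3 are no independent support. The median difference rested on which KO mice entered: removing mouse 3 gave 1.48, and removing mouse 2 gave 0.49.

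R47H against KO asks whether the variant departs from having no human TREM2. Here the sign of the answer rested on KO mouse 3. With all arrays 17 of the 23 genes were lower in R47H, at a median of -0.23 where all genes had 0.00. Without that mouse 17 were higher, at a median of 0.23. In both fits limma called 0 of the 23, against 0.0834% of all genes with all arrays and 0.0185% without KO mouse 3. At an unadjusted p under 0.05, 2 of the 23 passed with all arrays (Lrg1 and Cebpe, both lower in R47H), against 5.68% of all genes. Without KO mouse 3, 7 passed at that unadjusted level, all higher in R47H, where 3.69% of all genes were higher. The groups did not overlap for 1 gene, Alox5ap, where 7.11% of all genes had groups apart.

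**Figure D2:**
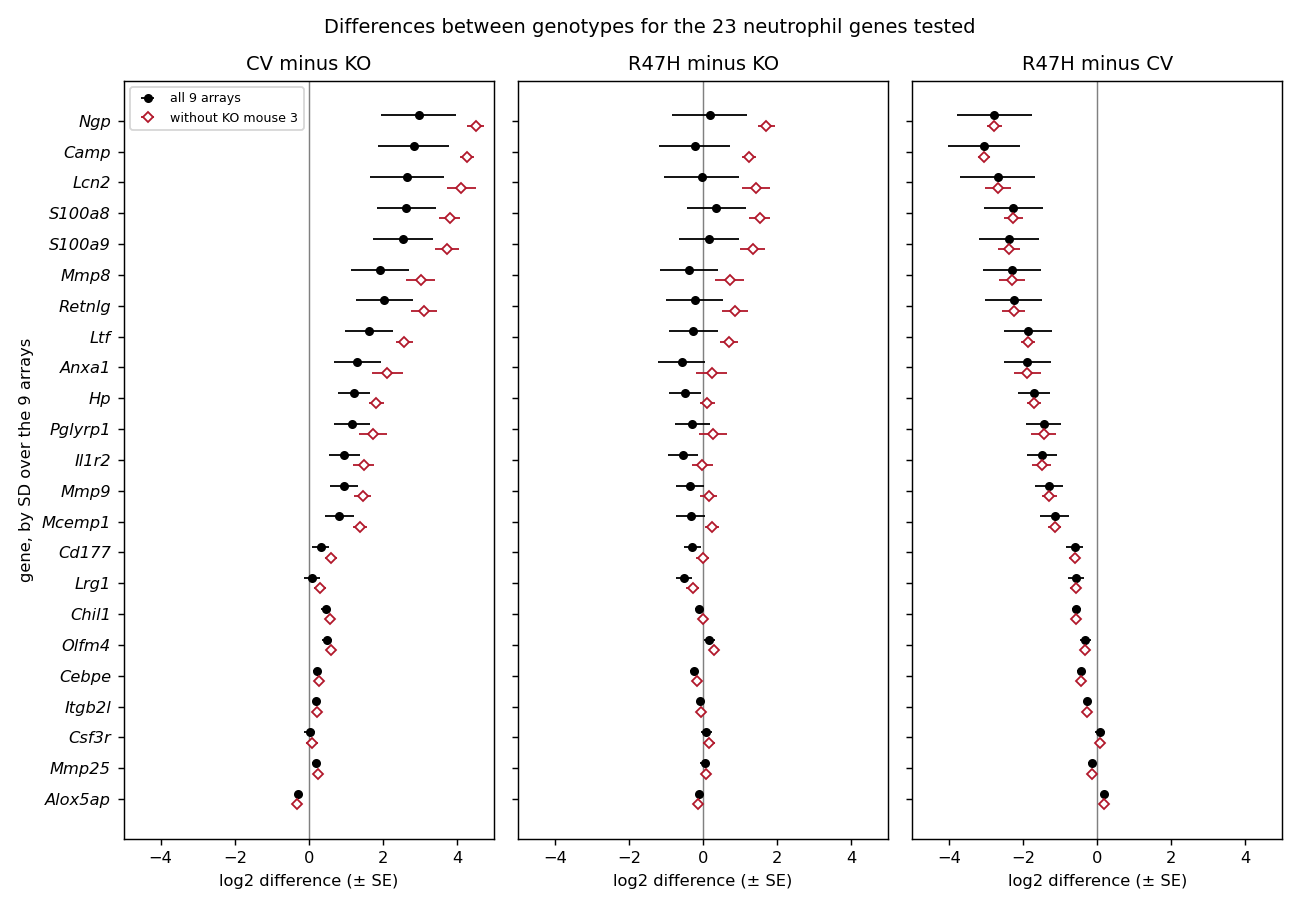
Log2 difference with its SE from limma for the 23 tested genes (rows, by SD over the 9 arrays) in each of the 3 comparisons (panels), with all 9 arrays (black circles) and without KO mouse 3 (open red diamonds). Removing that mouse moves the differences against KO to the right for every gene but Alox5ap, leaves the R47H minus CV differences in place, and narrows the SE of the most variable genes, as for Camp from 0.96 to 0.19 in CV minus KO.

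The azurophil granule genes, which are transcribed at the promyelocyte stage, were all below the level filter. Mpo, encoding myeloperoxidase, was at 5.18, 5.17 and 5.48 in KO mice 1 to 3, at 5.03, 5.12 and 5.01 in R47H and at 5.78, 5.19 and 5.12 in CV. The serine protease genes lay within narrow ranges over the 9 arrays: Elane from 4.51 to 4.85, Prtn3 from 4.94 to 5.46 and Ctsg from 3.24 to 3.61. CV mouse 1 had the highest value for Mpo, Elane and Prtn3, with KO mouse 3 the next highest for each. This order differs from that of the specific granule genes, in which CV mouse 1 was the lowest of the CV mice for Camp, Ngp, Ltf, Lcn2 and Pglyrp1. In common with those genes, KO mouse 3 was above both other KO mice for Mpo, Elane, Prtn3 and Ctsg, against 25.3% of 19938 genes. Before rounding, every R47H value of Mpo lay below every CV value, against 4.82% of 19938 genes, and also below every KO value. Fitted without a level filter, the largest difference among these 4 genes was -0.31 ± 0.16 for Mpo in R47H minus CV (limma adjusted p = 0.631).

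The specific granule genes held the widest differences. Camp, encoding the antimicrobial peptide precursor cathelicidin, had values of 5.50, 6.26 and 10.67 in KO, 6.49, 7.31 and 7.93 in R47H and 9.89, 10.47 and 10.54 in CV. KO mouse 3 was the highest of all 9 arrays and every R47H mouse lay below every CV mouse. The R47H mean of 7.25 ± 0.72 (SD, n = 3) and the CV mean of 10.30 ± 0.36 differed by 8.32-fold on the linear scale. In limma this difference had an adjusted p of 0.251 with all arrays and 0.000251 without KO mouse 3.

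Ngp, neutrophilic granule protein, followed the same order. It was at 4.29, 5.40 and 10.11 in KO, at 5.56, 7.08 and 7.71 in R47H and at 8.82, 10.03 and 9.85 in CV. The span of 5.82 between KO mouse 1 and KO mouse 3 is a 56.6-fold difference between mice of 1 genotype, the widest of the 32 genes. Its CV minus KO difference was 2.97 ± 1.01 with all arrays and 4.50 ± 0.23 without KO mouse 3 (limma adjusted p = 0.255 and 0.000163).

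Lcn2 encodes lipocalin 2, which binds bacterial siderophores. Its values were 5.21, 5.12 and 10.04 in KO, 5.68, 6.80 and 7.76 in R47H and 8.76, 9.98 and 9.58 in CV. Ltf, the iron-binding protein lactoferrin, was at 5.07, 5.31 and 8.38 in KO, at 5.64, 5.96 and 6.39 in R47H and at 7.14, 8.48 and 7.99 in CV. For both genes KO mice 1 and 2 lay below every R47H and CV mouse. The R47H minus KO difference turned from -0.04 ± 1.01 to 1.43 ± 0.39 for Lcn2 without KO mouse 3, and from -0.26 ± 0.65 to 0.70 ± 0.23 for Ltf (limma adjusted p = 0.461 and 0.629).

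Pglyrp1, a peptidoglycan-binding protein, had values of 6.77, 6.08 and 8.34 in KO, 6.28, 6.82 and 7.22 in R47H and 7.54, 8.94 and 8.21 in CV. Olfm4, olfactomedin 4, which marks a subset of neutrophils, was at 5.79, 5.52 and 5.92 in KO, at 5.95, 6.03 and 5.76 in R47H and at 6.42, 6.31 and 5.96 in CV. Chil1, a chitinase-like protein, was at 5.26, 5.57 and 5.88 in KO, at 5.27, 5.70 and 5.41 in R47H and between 5.99 and 6.09 in all 3 CV mice. Olfm4 and Chil1 spanned under 1 over all arrays, and their CV minus KO differences were 0.49 ± 0.14 and 0.46 ± 0.12 (limma adjusted p = 0.164 and 0.143). KO mouse 3 lay below every CV mouse for these genes, unlike for Camp or Ngp. Fcnb, ficolin B, ranged from 4.58 to 5.15 and was below the filter.

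**Figure D3:**
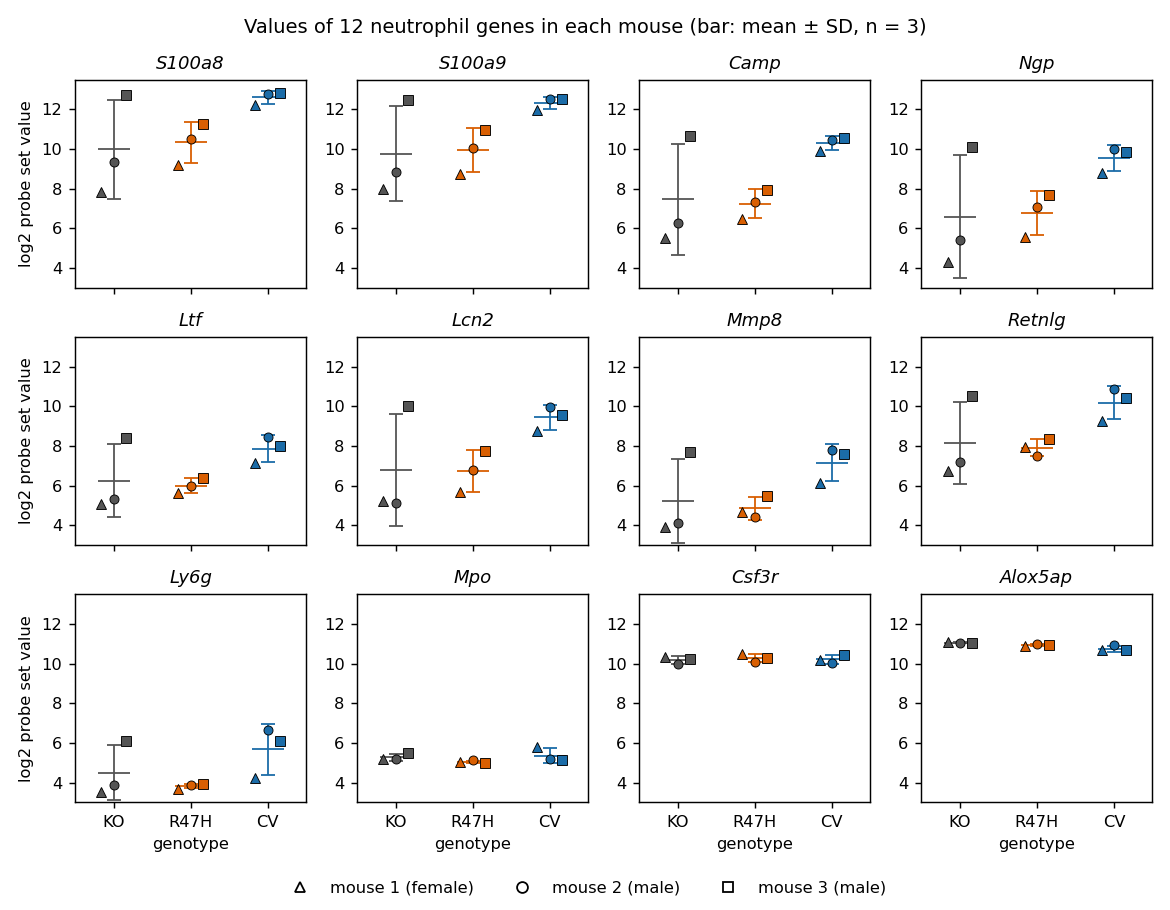
Log2 probe set value of 12 neutrophil genes (panels) in each mouse by genotype, with triangles for the female mouse 1, circles for mouse 2 and squares for mouse 3 (both male), and bars for the mean ± SD of 3 mice. KO mouse 3 lies with the CV mice for S100a8, S100a9, Camp, Ngp, Ltf, Lcn2, Mmp8, Retnlg and Ly6g, and the mice of all groups lie close together for Csf3r and Alox5ap.

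Of the genes listed here under gelatinase granules and secretory vesicles, Mmp8, Mmp9, Retnlg, Hp and Lrg1 had KO mouse 3 and the 3 CV mice as their 4 highest arrays. Mmp25 did not. The list is a grouping made for this report, and a product may be stored in other granules too. For Lrg1 KO mouse 3 lay above every CV mouse and the span was narrower. Mmp8, neutrophil collagenase, was at 3.92, 4.12 and 7.68 in KO, at 4.66, 4.42 and 5.50 in R47H and at 6.11, 7.80 and 7.59 in CV. It passed the level filter through its higher arrays, since its means in KO (5.24) and R47H (4.86) lay under it, so that its difference from these groups is no independent support. Anxa1 and Cebpe also had an R47H mean under the filter. Mmp9, the gelatinase that gives these granules their name, was at 5.39, 5.36 and 7.05 in KO, at 5.21, 5.87 and 5.67 in R47H and at 6.57, 7.40 and 6.66 in CV.

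Retnlg, a resistin-like secreted protein, had values of 6.72, 7.20 and 10.52 in KO, 7.95, 7.48 and 8.33 in R47H and 9.25, 10.87 and 10.41 in CV. Hp, haptoglobin, which binds free haemoglobin, was at 5.08, 5.18 and 7.18 in KO, at 4.99, 5.19 and 5.78 in R47H and at 6.54, 7.42 and 7.13 in CV. Both had KO mouse 3 within the CV range and no R47H mouse in it. The R47H minus CV difference of Hp was -1.71 ± 0.43 with all arrays and -1.71 ± 0.18 without KO mouse 3 (limma adjusted p = 0.151 and 0.00542).

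Lrg1, a secreted leucine-rich glycoprotein, was at 5.60, 5.78 and 6.32 in KO, at 5.72, 5.08 and 5.39 in R47H and at 5.96, 6.11 and 5.86 in CV. Its R47H minus KO difference, -0.51 ± 0.21, had an unadjusted p of 0.0369 and an adjusted p of 0.855 in limma. Mmp25, a membrane-anchored metalloproteinase, was at 5.43, 5.40 and 5.61 in KO, at 5.53, 5.37 and 5.66 in R47H and at 5.51, 5.87 and 5.62 in CV, with overlapping groups.

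The cytosolic genes divided into a variable and a flat set. S100a8 and S100a9 encode the subunits of calprotectin, which sequesters zinc and manganese. S100a8 was at 7.84, 9.37 and 12.74 in KO, at 9.22, 10.53 and 11.28 in R47H and at 12.22, 12.79 and 12.83 in CV. S100a9 was at 7.97, 8.87 and 12.50 in KO, at 8.76, 10.08 and 10.98 in R47H and at 11.98, 12.52 and 12.51 in CV. For both, KO mouse 3 lay within the CV range and the 3 R47H mice lay below it. The R47H minus CV differences were -2.27 ± 0.80 for S100a8 and -2.39 ± 0.81 for S100a9 with all arrays (limma adjusted p = 0.301 and 0.284). Without KO mouse 3 these adjusted p were 0.00742 and 0.00992.

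Anxa1, annexin A1, which limits neutrophil recruitment, was at 4.81, 4.25 and 7.12 in KO, at 4.61, 4.31 and 5.52 in R47H and at 6.04, 7.18 and 6.89 in CV. Alox5ap, the protein that presents arachidonic acid to 5-lipoxygenase, is also transcribed in microglia and ran the other way. It was at 11.08, 11.04 and 11.03 in KO, at 10.88, 10.97 and 10.92 in R47H and at 10.67, 10.92 and 10.66 in CV. KO mice were above every CV mouse and every R47H mouse, KO mouse 3 included, over a span of 0.43. Its CV minus KO difference of -0.30 ± 0.08 had an adjusted p of 0.158 in limma. Serpinb1a, a serine protease inhibitor, ranged from 3.78 to 4.75 and Padi4, which citrullinates histones, from 4.22 to 4.45, both below the filter.

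Among surface receptors, Ly6g, the antigen most used to identify mouse neutrophils, was below the filter on its mean and above 6 in 3 arrays. It was at 3.54, 3.88 and 6.09 in KO, at 3.69, 3.86 and 3.91 in R47H and at 4.24, 6.67 and 6.10 in CV. KO mouse 3, CV mouse 2 and CV mouse 3 were high, and CV mouse 1, with a value of 12.22 for S100a8, was nearer to the low arrays for Ly6g. Without a level filter its R47H minus CV difference was -1.85 ± 0.56 (limma adjusted p = 0.334).

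Il1r2, the decoy receptor for interleukin-1, was at 5.94, 4.88 and 6.94 in KO, at 5.09, 5.59 and 5.46 in R47H and at 6.73, 7.03 and 6.87 in CV. With the R47H and CV arrays alone its difference of -1.50 ± 0.08 had the lowest adjusted p of the 23, 0.00292 in limma. Mcemp1, a membrane protein of mast cells and other myeloid cells, was at 5.34, 5.18 and 6.88 in KO, at 5.74, 5.25 and 5.44 in R47H and at 6.45, 6.97 and 6.46 in CV. Both receptors had KO mouse 3 within the CV range and no R47H mouse in it.

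Cd177, a surface glycoprotein of neutrophil subsets, was at 5.72, 6.14 and 6.88 in KO, at 6.05, 5.82 and 5.98 in R47H and at 6.30, 6.89 and 6.51 in CV. Itgb2l, an integrin beta 2-like chain, was at 5.30, 5.54 and 5.64 in KO, at 5.24, 5.44 and 5.57 in R47H and at 5.54, 5.75 and 5.81 in CV, and in each group the female had its lowest value. Csf3r, the receptor for granulocyte colony-stimulating factor, was flat: 10.33, 9.98 and 10.25 in KO, 10.50, 10.06 and 10.27 in R47H and 10.17, 10.02 and 10.44 in CV. The Csf3r groups overlapped in every comparison, and CV minus KO was 0.02 ± 0.14 (limma adjusted p = 0.962). This receptor is also transcribed in microglia.

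The transcription factors spanned little. Cebpe was at 5.20, 5.55 and 5.68 in KO, at 5.16, 5.27 and 5.27 in R47H and at 5.61, 5.88 and 5.55 in CV. Every R47H mouse was below every CV mouse, and the difference of -0.45 ± 0.11 had an adjusted p of 0.127 in limma. Gfi1 ranged from 4.28 to 4.61, below the filter.

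The female mouse was the lowest of its group in all 3 groups for 7 of the 23 genes (Camp, Ngp, Ltf, Hp, S100a8, S100a9 and Itgb2l), where 4.22% of all genes showed this. Read from the sex term of the same model, a comparison added after these values were seen, the median difference of female minus male was -0.61 where all genes had 0.01, and -0.32 without KO mouse 3. Limma called 0 of the 23 for sex, against 0.0648% of all genes, and 6 were lower in females at an unadjusted p under 0.05, against 3.55% of all genes. With 1 female per group, sex and the individual mouse cannot be told apart within a group. Mouse 1 was the female in every group, so over the groups sex and mouse number 1 cannot be told apart either.

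Other genes of neutrophils came from a list of 40, chosen for function with earlier results of these data known. They are therefore no independent support. Most had differences of the same sign, and the median differences were smaller. Of the 34 measured, 24 were tested. In CV minus KO 20 of the 24 were positive, at a median of 0.40 where all genes had -0.02. Limma called 2 higher, Clec4d and Cybb, against 1.21% of all genes. At an unadjusted p under 0.05, 12 were higher, against 6.23% of all genes. Another 2 were lower, against 750 of 10795 genes. These were Itgam (-0.30 ± 0.06) and Ncf1 (-0.24 ± 0.08), with every CV mouse below every KO mouse (limma adjusted p = 0.0738 and 0.256). In R47H minus CV 20 were negative, at a median of -0.43 where all genes had 0.01. Limma called Clec4d alone, as lower, against 0.797% of all genes. Itgam and Ncf1 had every R47H mouse above every CV mouse. In R47H minus KO limma called 0, against 0.0834% of all genes. At an unadjusted p under 0.05, 1 passed (Cybb, 0.0223), against 5.68%. Without KO mouse 3, limma called 9 higher in CV minus KO, against 1.18% of all genes. It called 5 lower in R47H minus CV, against 0.723%, and 0 in R47H minus KO, against 0.0185%.

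Clec4d, a C-type lectin of neutrophils and monocytes, was at 5.01, 5.47 and 6.39 in KO, at 5.10, 5.19 and 5.34 in R47H and at 6.95, 7.68 and 7.50 in CV. The CV minus KO difference was 1.75 ± 0.23 and the R47H minus CV difference was -2.17 ± 0.23, with adjusted p of 0.00835 and 0.00641 in limma. KO mouse 3 was above the other KO mice for Clec4d and still below every CV mouse. Cybb, the catalytic subunit of the phagocyte NADPH oxidase, which microglia also transcribe, was at 8.56, 7.96 and 9.02 in KO, at 9.14, 9.07 and 9.11 in R47H and at 9.94, 9.79 and 9.85 in CV. Its CV minus KO difference was 1.35 ± 0.21 (limma adjusted p = 0.0202), and the 3 groups did not overlap. Both calls in CV minus KO ended when the CV and KO arrays were fitted alone (limma adjusted p = 0.0517 for Clec4d and 0.137 for Cybb), and without KO mouse 1 or CV mouse 1 or 2 in turn. With males only they ended too (limma adjusted p = 0.149 and 0.306), as did the Clec4d call in R47H minus CV (0.174). Without CV mouse 1 or 3 the Clec4d call in R47H minus CV ended as well (adjusted p = 0.0543 and 0.0572 in limma).

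The other genes of this list with the largest SD included receptors and enzymes. Cxcr2, the chemokine receptor that draws neutrophils into tissue, was at 4.26, 3.98 and 6.18 in KO, at 4.50, 4.57 and 4.30 in R47H and at 6.05, 6.23 and 5.78 in CV, with KO mouse 3 again among the CV mice and a mean below the filter. Clec4e, a lectin paired with Clec4d, was at 4.64, 3.89 and 5.33 in KO, at 3.96, 4.18 and 3.98 in R47H and at 5.98, 6.04 and 6.06 in CV, also below the filter. Here KO mouse 3 stayed below the CV mice. Ifitm6, Trem1 and Mgst1 had CV minus KO differences of 1.77 ± 0.69, 0.75 ± 0.45 and 1.52 ± 0.37, none of them called (limma adjusted p = 0.312, 0.532 and 0.112).

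Of the monocyte markers, Chil3, S100a4 and S100a6 shared the order of the neutrophil genes across arrays. The mean of 9 measured markers was 5.67, 5.69 and 6.61 in KO, 5.74, 5.67 and 5.93 in R47H and 6.35, 6.85 and 6.50 in CV. On this mean, which includes Chil3, S100a4 and S100a6, KO mouse 3 again lay within the CV range. Of 7 tested, 6 were positive in CV minus KO at a median of 0.61, and 6 were negative in R47H minus CV at a median of -0.41. With all arrays limma called 0 in either. At an unadjusted p under 0.05, 4 were higher in CV than in KO, against 6.23% of all genes. Another 1 was lower, against 750 of 10795 genes, and 4 were lower in R47H than in CV, against 5.24%. Without KO mouse 3, limma called 3 higher in CV than in KO, against 1.18%, and 3 lower in R47H than in CV, against 0.723%. The widest were Chil3, at 3.41, 4.03 and 7.76 in KO, 3.71, 4.63 and 5.15 in R47H and 6.37, 7.76 and 7.62 in CV, and S100a6, from 7.30 to 10.49, with S100a4 from 6.53 to 8.03. Chil3 and S100a6 are transcribed in neutrophils too. F13a1, a coagulation factor subunit of monocytes and macrophages, was the 1 lower gene, at 7.29, 7.77 and 7.21 in KO, 7.24, 7.48 and 7.14 in R47H and 6.98, 7.24 and 6.94 in CV, with a CV minus KO difference of -0.37 ± 0.15 (limma adjusted p = 0.347). Ccr2, the receptor that defines inflammatory monocytes, ranged from 5.15 to 6.32 with overlapping groups, and Vcan (3.64 to 4.12) and Gpr141 (3.20 to 4.09) were below the filter. Plac8, from 6.01 to 7.05, also had overlapping groups. For Ms4a4c KO mouse 3, at 6.12, lay below every CV mouse, at 6.70, 6.63 and 6.49. What part monocytes have in the neutrophil gene values was not tested.

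Markers of lymphocytes, erythroid cells and platelets had list means within narrower ranges. The mean of 7 B cell markers lay between 4.50 and 4.78 over all arrays, with 5 of the 7 below the filter, and that of 9 T and NK cell markers between 4.06 and 4.27, with 7 below it and Gzma and Cd3d (3.28 to 3.93) as the most variable. Gzma, a granule protease of cytotoxic lymphocytes that was below the filter, was at 3.96, 3.90 and 4.53 in KO, at 3.74, 3.63 and 3.53 in R47H and at 3.51, 4.46 and 4.58 in CV, so that KO mouse 3 and CV mice 2 and 3 were its highest arrays, as for Ly6g. Cd79b, an immunoglobulin-associated chain that microglia also transcribe, was called lower in CV than in KO (-0.65 ± 0.11, limma adjusted p = 0.0269), a call that was lost in 10 of 18 alternatives (limma adjusted p = 0.0971 without a sex term and 0.0983 with males only). Cd79a ranged from 3.22 to 4.70. Erythroid and platelet list means ran from 4.86 to 5.07 and from 5.33 to 5.61, and limma called 0 of the 3 genes tested in the genotype comparisons, with 0 at an unadjusted p under 0.05. Mast cell, basophil and eosinophil markers had 8 of 10 below the filter, with Prg2 from 4.52 to 9.35 and Mcpt8 from 3.78 to 6.36, the latter highest in R47H mice 2 and 3.

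On their mean, border macrophage markers ran opposite to the neutrophil genes. The mean of 6 was 7.81, 7.77 and 7.52 in KO, 7.72, 7.89 and 7.81 in R47H and 7.38, 7.51 and 7.34 in CV. All 6 were negative in CV minus KO at a median of -0.31, though Pf4 (0.00 ± 0.13) and Lyve1 (-0.01 ± 0.16) hardly differed. Limma called 0 there, and 2 were lower at an unadjusted p under 0.05, against 750 of 10795 genes. All 6 were positive in R47H minus CV at a median of 0.40, where limma called 1, against 0.797% of all genes. That gene was Cd163, at 0.56 ± 0.08 (limma adjusted p = 0.0235), named here after its values were seen, and the call was lost in 7 of 18 alternatives. Cbr2 and Folr2 had the largest SD, ranging from 6.90 to 8.07 and from 5.88 to 6.87. All 9 microglial markers were negative in CV minus KO at a median of -0.16, where all genes had -0.02. Limma called 0 of them, and 5 were lower at an unadjusted p under 0.05, against 750 of 10795 genes. Dendritic cell markers lay between 5.84 and 6.04 and proliferation genes between 5.65 and 6.27 as list means. Limma called 0 of their 9 tested genes in any genotype comparison. At an unadjusted p under 0.05, 3 of the 5 proliferation genes tested were higher in R47H than in KO, against 381 of 10795 genes. No genotype comparison had more of the 9 at that level. Within the lists not yet named by gene, the most variable were Gp9 (7.14 to 8.19) and Treml1 (6.46 to 6.90) for platelets and Alas2 (4.93 to 5.45) and Epb42 (4.14 to 4.48) for erythroid cells. They were Ccr7 (5.23 to 6.19) for dendritic cells, Top2a (4.77 to 5.92) and Ccna2 (4.78 to 5.77) for proliferation, and Siglech (11.50 to 11.91) and Tmem119 (11.52 to 12.01) for microglia, Siglech being listed for dendritic cells too. The part these differences have in the neutrophil gene values was not tested.

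**Figure D4:**
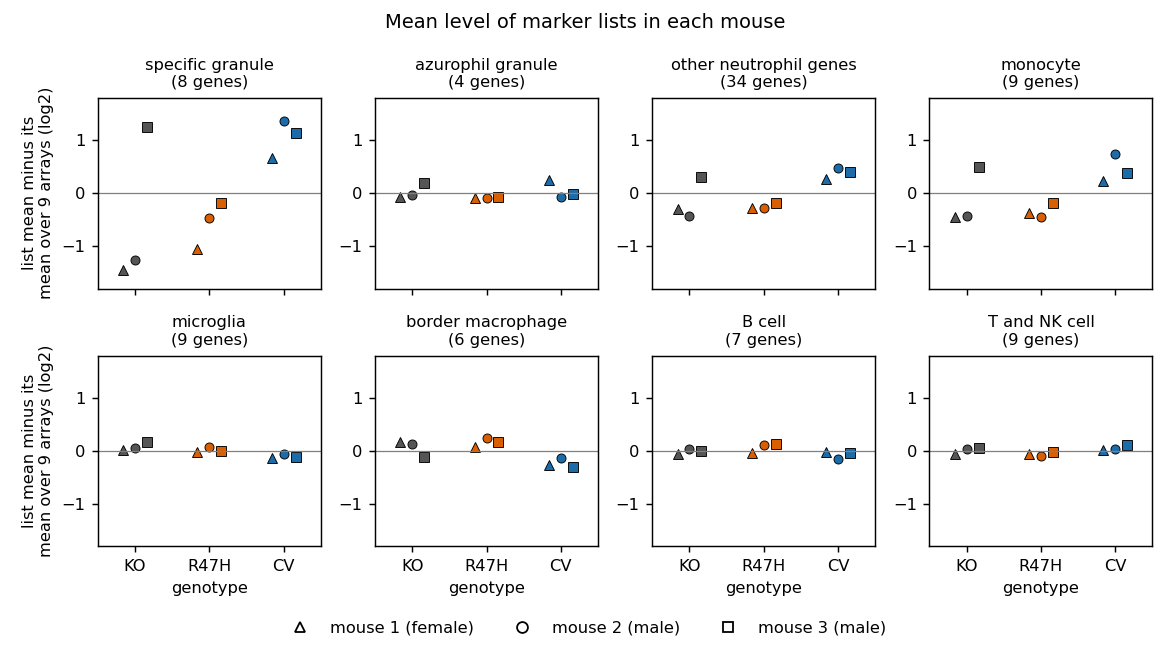
Mean log2 level of the measured genes of 8 lists (panels, with the number of genes) in each mouse, minus the list's own mean over the 9 arrays, by genotype, with triangles for mouse 1 (female), circles for mouse 2 and squares for mouse 3. KO mouse 3 lies with the CV mice on the list means of specific granule, other neutrophil and monocyte genes, though not for every gene in them. The means of azurophil granule genes and of B, T and NK cell markers stay near 0.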

How the data were processed

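The authors deposited 1 log2 value per probe set and array, 35556 probe sets on 9 arrays, and the log2 scale was read from the values, which ran from 1.31 to 13.9. How they were background-corrected and normalized is not stated in these sources, and no further scaling was applied. Array medians were 5.28 to 5.35. Per the labels' protocols, cRNA was made from 2 ng of RNA. Gene names came from the platform annotation, where it lists 1 symbol for the probe set (21789, against 1621 with several and 12146 with none), and the highest-mean probe set stood for a gene. Cross-hybridisation was not checked.

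Genes at or above the median probe set mean (5.31) were tested with limma 3.58.1 in R 4.3.3, with terms for genotype and sex, 5 residual and 3.73 prior degrees of freedom, two-sided, and Benjamini-Hochberg adjustment over 10795 genes. The script was tested on simulated data. An exact permutation of 3 against 3 arrays reaches no p under 0.10. The number of arrays limits the precision, and the labels name each array as a separate mouse. Scan dates and other batches were not analysed here.

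The genes and lists were chosen with earlier results of these data known. Values on every array were given for tested genes, and Mpo, Elane, Prtn3, Ctsg, Ly6g, Cebpe and Gfi1 were always named. Of other neutrophil genes, those called and the 6 of largest SD were named, and of other lists the 2 of largest SD. Promoter letters come from RefSeq. Mouse numbers were not treated as pairs: deviations of same-numbered arrays correlated between -0.04 and 0.36, with 7 of 9 over 0.1.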

Additional observations from a re-analysis of the deposited data

Results flagged for a closer look

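For Lrg1 the R47H minus KO difference was 0.12 in the female pair of arrays and -0.82 on average over the pairings of males, which ran from -1.24 to -0.40, so the sexes lay on opposite sides of 0. For Cd177 the female difference was 0.33 and the male mean was -0.61, with a range from -1.06 to -0.16. The male pairings include KO mouse 3. Over both sexes, the R47H minus KO difference of Lrg1 was -0.51 ± 0.21 with all arrays and -0.28 ± 0.17 without that mouse. For Cd177 it was -0.29 ± 0.23 and -0.01 ± 0.17. Each female difference rests on 1 female mouse per group, and the difference between the sexes was not tested.

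The probe set shared by Stfa2l1 and Stfa2, cystatins of neutrophils, took no part in the comparisons because it names more than 1 gene. Its log2 values were 3.40, 3.45 and 5.00 in KO, 3.09, 3.12 and 3.18 in R47H and 5.45, 6.71 and 6.38 in CV, with a CV mean of 6.18. KO mouse 3 was above the other KO mice and below every CV mouse.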

How the results depend on the processing

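Over 18 alternatives, limma called 0 of the 23 neutrophil genes tested in R47H minus KO in every one, and 0 of them in CV minus KO in all but 1. Leaving out each array in turn gave 0 to 11 of them called in CV minus KO. The 11 came without KO mouse 3, against 1.18% of all genes called higher. In R47H minus CV the removals gave 0 to 13. These were 13 without KO mouse 3, against 0.723% of all genes called lower, and 2 without KO mouse 2, against 0.509%. Fitting only R47H and CV gave 8 in that comparison, against 0.556%. With the mouse number as a replicate block in place of sex, 0 were called in each comparison, and over all genes 136, 11 and 83 in CV minus KO, R47H minus KO and R47H minus CV against 131, 9 and 86; 6 of 9 arrays correlated best with an array of their own number. The median difference ran from -0.70 to 0.23 in R47H minus KO and from 0.49 to 1.48 in CV minus KO over these removals, and in R47H minus CV it was -0.60 both without the level filter and with every probe set, where 32 genes entered.

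Of the differences of single genes, 51 of 69 kept their sign in every alternative, and 30 of the 40 changes of sign were in R47H minus KO, 11 of them without KO mouse 3. Over the removals that comparison ran from -1.18 to 1.23 for Camp, -0.86 to 1.71 for Ngp, -0.98 to 0.70 for Ltf, -1.26 to 1.43 for Lcn2, -0.96 to 0.27 for Pglyrp1, -0.21 to 0.01 for Chil1, -1.22 to 0.72 for Mmp8, -0.78 to 0.15 for Mmp9, -0.02 to 0.14 for Mmp25, -0.98 to 0.11 for Hp, -0.96 to 0.86 for Retnlg, -0.33 to 1.53 for S100a8, -0.64 to 1.34 for S100a9, -1.34 to 0.23 for Anxa1 and -0.70 to 0.23 for Mcemp1. With males only it was -0.36 for Ngp, -0.15 for S100a8 and -0.16 for S100a9, and with array weights -0.33 for Ngp and -0.24 for S100a9. In CV minus KO, Lrg1 ran from -0.15 to 0.30 (-0.07 with males only) and Csf3r from -0.14 to 0.14 (-0.01 with quantile normalization, -0.04 with array weights). In R47H minus CV, Csf3r ran from -0.05 to 0.22 (-0.07 with males only). The cause was not tested.

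Over all genes the counts of calls in CV minus KO, R47H minus KO and R47H minus CV fell furthest with males only, to 20, 0 and 1. With the compared groups alone they were 54, 1 and 91, without a sex term 77, 3 and 60, with every probe set 101, 9 and 41, without the level filter 100, 8 and 48, and with trend and robust options 153, 15 and 96. Over the removals they ran from 59 to 172, 0 to 7 and 9 to 132. Cd79b in CV minus KO kept its call in 8 of 18 alternatives and Cd163 in R47H minus CV in 11. With 3 arrays per group only differences well above a gene's residual SD can be called, whose median was 0.66 for the 23 genes, 1.04 for the specific granule genes and 0.12 for all genes.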
